A study of Mus musculus with 11 samples.

Results

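Wild-type mouse embryonic stem (ES) cells grown in 2i/LIF were compared with the same type of cell grown in serum/LIF, one cell at a time. The members are the cell barcodes of both wild-type libraries on tissue-culture plastic with at least 1000 unique molecular identifiers (UMIs, the tags that count transcripts) and at most 0.9 detected genes per UMI. These were 2889 cells in 2i/LIF and 725 in serum/LIF, or 3614 of the 7079 cells that the same rule left in the 5 single-cell libraries of the series. The series has 11 samples in all. Both libraries here held cells of the E14 line with no genetic change, cultured on plastic, washed in PBS and processed with inDrop, a droplet method for single-cell RNA sequencing. Each medium had 1 library. Medium, library and the way each table was counted therefore cannot be told apart, and no difference below has a replicate check. Levels are also given for 2 further libraries in serum/LIF, which were not pooled with the comparison. One held 112 wild-type E14 cells in agarose microgels. The other held 1200 cells on plastic of a line labelled JupLow, with low overexpression of plakoglobin from a CAG promoter, whose parent line the labels do not name. A further serum/LIF library, labelled JupHigh, is not used for the gene levels given here, so statements on the 3 serum/LIF libraries cover wild type on plastic, wild type in gel and JupLow.

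Mouse ES cells are derived from the inner cell mass of the blastocyst. LIF acts through the receptor pair Lifr and Il6st and the transcription factor Stat3, and supports self-renewal. The 2i medium adds an inhibitor of MEK, the kinase above ERK, and an inhibitor of GSK3, the kinase that marks β-catenin for destruction. FGF4 made by the cells themselves drives ERK signalling, which moves ES cells towards differentiation, while β-catenin relieves the repression that Tcf7l1 puts on naive genes. Cells in 2i/LIF are known for a uniform naive state, whereas serum/LIF is a metastable medium in which naive, formative and differentiating cells coexist.

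The 2i/LIF cells summed to 8284254 UMIs, with a median of 2465 UMIs and 1240 genes per cell, and the serum/LIF cells to 2017950 UMIs, with medians of 2361 and 1187. The lowest levels that 3 UMIs allow were 0.362 CPM (UMIs scaled to 1000000 per library) in 2i/LIF and 1.49 CPM in serum/LIF. In the gel and JupLow libraries they were 12.7 and 1.04 CPM, so gel values under 12.7 CPM rest on fewer than 3 UMIs. Mitochondrially encoded genes made up 20% or more of the UMIs in 12.6% of the 2i/LIF cells and 24.3% of the serum/LIF cells. Barcodes under 500 UMIs numbered 5908 in serum/LIF and 2 in 2i/LIF, so the makeup of such barcodes could be read only for serum/LIF. Whether they were empty droplets or cells of low depth was not tested. Both tables had at least 1 UMI for 17304 genes, which held 95.7% of the 2i/LIF UMIs and 99.0% of the serum/LIF UMIs. Left out were 4859 genes with 0 UMIs or no column in serum/LIF and 2408 with the same fault in 2i/LIF.

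Of the 17304 genes, 8928 had a mean of both CPM values of at least 10. Among these, 807 (9.04%) were at least 2-fold higher in 2i/LIF and 1300 (14.6%) at least 2-fold lower, with a median log2 ratio of -0.04. Ratios are 2i/LIF over serum/LIF of the CPM summed over cells, on the log2 scale. The range in brackets after a gene's ratio is its exact 95% interval, which covers counting error only. After a list median, the range runs from the median of the members' lower ends to the median of their upper ends. It is not an interval of the median and does not show the spread of the members. With TMM factors, a scaling that trims extreme genes, the median of all genes moved to 0.22 and the split became 1213 higher and 1023 lower, so that 54.2% of the genes past 2-fold were higher instead of 38.3%. The excess of lower genes thus turned with the scaling. Genes that overlap no other annotated gene were past 2-fold less often, with 303 of 3961 higher (7.65%) and 434 lower (11.0%). Ratios of 8-fold or more made up 3.53% of these genes and 8.74% of the 4826 genes with an overlap.

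**Figure D1:**
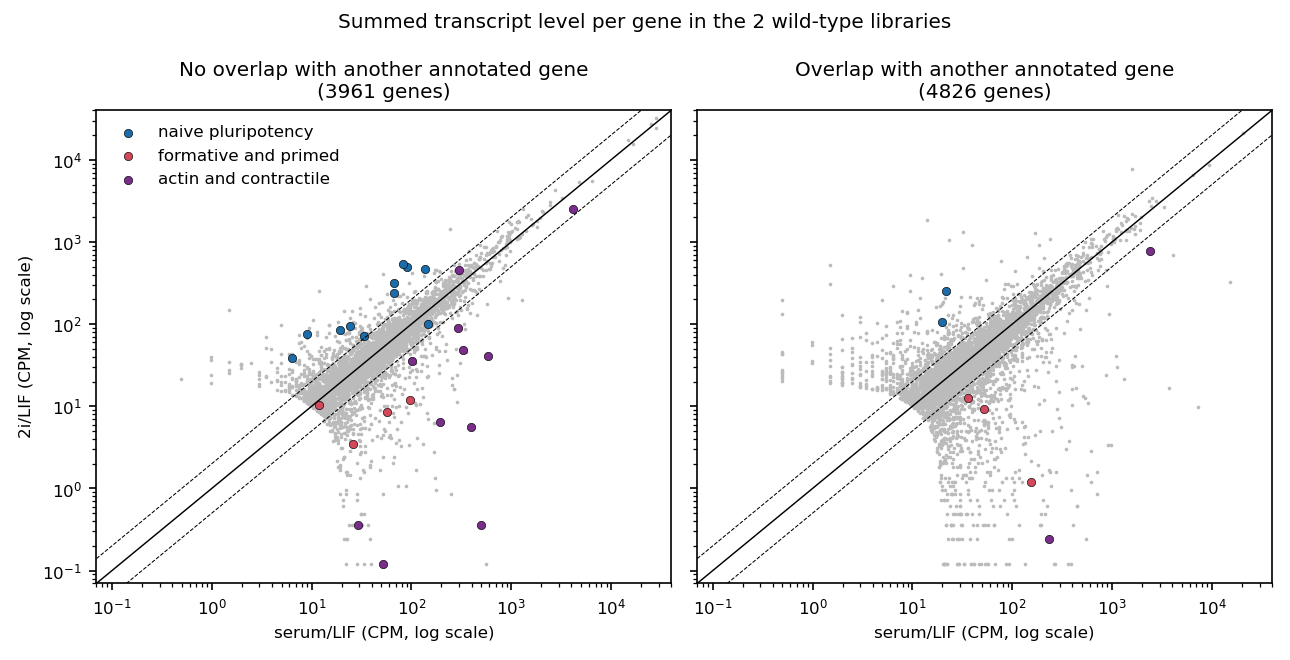
Summed CPM of each gene in 2i/LIF (vertical) against serum/LIF (horizontal), both on log axes, with genes that overlap no other annotated gene on the left (3961) and those that overlap one on the right (4826); coloured points are naive, formative and actin genes, the solid line marks equal levels and the dashed lines 2-fold. Genes with an overlap spread farther, with 8.74% against 3.53% past 8-fold.

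The most extreme ratios belonged to genes for which the serum/LIF plastic table stood apart from the gel and JupLow tables. Whether counting or the library makes this difference cannot be told apart. Without regard to overlaps, the largest ratios towards 2i/LIF belonged to Ppib, a cyclophilin of the secretory pathway, to the ubiquitin ligase gene Rnf5 and to Rab5if. Ppib stood at 196 CPM in 2i/LIF, 0.496 in serum/LIF, 114 in the gel library and 139 in JupLow. Rab5if stood at 310, 1.49, 330 and 322 CPM in that order. In both genes the serum/LIF plastic table alone was low. The largest ratios the other way belonged to Nme2, a nucleoside diphosphate kinase gene, to the ribosomal RNA gene CT010467.1 and to Heph, and here that table alone was high: Nme2 was at 0.241 CPM in 2i/LIF, 550 in serum/LIF and 0 in the gel and JupLow. The β-catenin gene Ctnnb1, which overlaps 3 annotated genes, was at 395 CPM in 2i/LIF, 9.42 in serum/LIF, 576 in the gel and 574 in JupLow, so its ratio of 5.39 (4.75 to 6.13) also rests on the 1 table. When the genes that stood 4-fold or more apart from both the gel and JupLow libraries were left out, 681 of 8647 genes were higher and 1146 lower.

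Naive pluripotency genes were higher in 2i/LIF. Of 14 members, all were measured and 13 reached the mean of 10 CPM. Of those 13, 12 were at least 2-fold higher, beside 9.04% of all genes, and none was 2-fold lower, beside 14.6%. The median log2 ratio over the list was 2.21 (1.73 to 2.66), beside -0.04 over all genes tested. The 14 genes together held 2909.5 CPM in 2i/LIF and 726 CPM in serum/LIF, beside 936 in the gel, 937 in JupLow and 661 in the serum/LIF barcodes under 500 UMIs.

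Among the members, Tfcp2l1, a factor downstream of LIF and Stat3, had the largest ratio, with 256 CPM in 2i/LIF against 21.8 in serum/LIF (3.55, 3.12 to 4.02). Tcl1, a cofactor of the kinase Akt, stood at 75.8 against 8.92 CPM (3.09, 2.41 to 3.85). Klf2, a Krüppel-like factor whose protein is destabilised by ERK signalling, stood at 500 against 90.2 CPM (2.47, 2.26 to 2.69). All 3 were lower in the 3 serum/LIF libraries than in 2i/LIF, with 25.4 and 28.8 CPM of Tfcp2l1 in the gel and JupLow. Zfp42, which encodes Rex1 and is widely used as a reporter of the naive state, had a smaller ratio: 475 CPM in 2i/LIF and 137 in serum/LIF (1.80, 1.62 to 1.98), with 313 in the gel and 239 in JupLow. Dppa3, also known as Stella and expressed in naive cells and oocytes, stood at 39.0 against 6.44 CPM (2.60, 1.80 to 3.52). Fgf4, the ligand that feeds the cells' own ERK signalling, was at 93.8 CPM in 2i/LIF and 24.3 in serum/LIF (1.95, 1.53 to 2.40). Klf5, the Krüppel-like factor often grouped with Klf2 and Klf4, went the other way, with 102 CPM in 2i/LIF and 147 in serum/LIF (-0.53, -0.72 to -0.33), and 148 and 107 CPM in the gel and JupLow.

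To compare shares of cells at equal depth, every cell was thinned at random to 1000 UMIs. After thinning, 87.7% (86.5 to 88.9) of the 2i/LIF cells and 44.6% (40.9 to 48.3) of the serum/LIF cells had a UMI of a naive gene, against 93.9% and 66.8% before thinning. The median cell held 2 naive UMIs in 2i/LIF and 0 in serum/LIF. Cells with 3 or more made up 47.8% in 2i/LIF and 6.76% in serum/LIF. The serum/LIF barcodes under 500 UMIs held the naive genes at 661 CPM, near the 726 CPM of the cells. The part of free RNA in these shares was not tested.

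**Figure D2:**
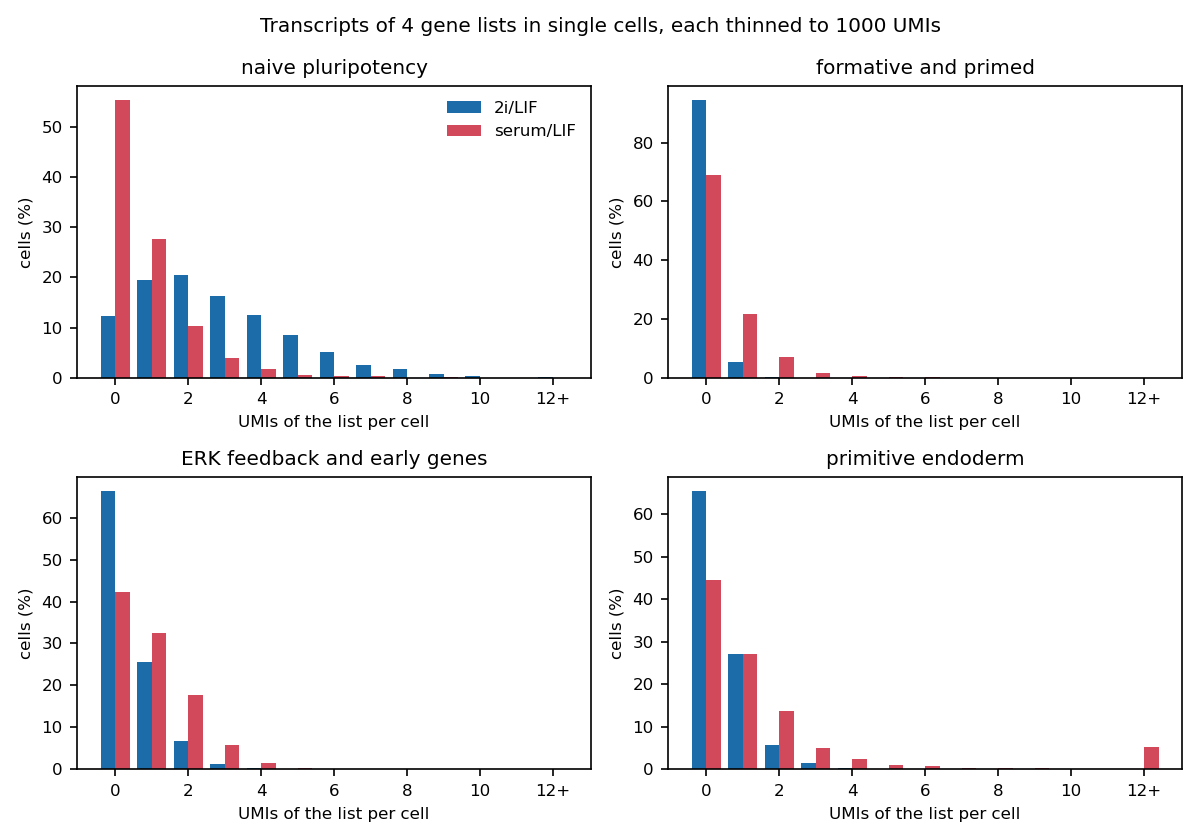
Share of cells (vertical, percent) by the number of UMIs of a gene list per cell after thinning to 1000 UMIs (horizontal), in 4 panels for the naive, formative, ERK and primitive endoderm lists, with 2i/LIF in blue and serum/LIF in red. The naive list peaks at 0 UMIs in serum/LIF and at 2 in 2i/LIF, and 5.24% of the serum/LIF cells hold 12 or more primitive endoderm UMIs.

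The general pluripotency list holds factors that both the naive and the later pluripotent state use. Of its 9 measured members, 5 were at least 2-fold lower in 2i/LIF and none was 2-fold higher (median -1.02, and -0.77 with TMM factors), beside 14.6% and 9.04% of all genes. The summed level of the list was 2463 CPM in 2i/LIF, where it includes Sox2, and 2462 in serum/LIF, where it cannot. Pou5f1, which encodes Oct4, stood at 585 against 465 CPM (0.33, 0.23 to 0.43). Dppa5a stood at 911 against 489 CPM (0.90, 0.80 to 1.00). Among the 2-fold lower members were Utf1, a chromatin factor bound to bivalent genes, with 129 against 450 CPM (-1.80, -1.93 to -1.67), the paired DNA-binding genes Dppa2 (37.5 against 104 CPM) and Dppa4 (53.2 against 175 CPM) and the Nodal co-receptor gene Tdgf1 (130 against 291 CPM; -1.16, and -0.91 with TMM factors). For Utf1 the gel and JupLow libraries held 605 and 533 CPM, so the 3 serum/LIF libraries were above 2i/LIF. Sox2 had no column in the serum/LIF table and was left out, at 245 CPM in 2i/LIF.

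Formative and primed genes, which come on as ES cells leave the naive state, were lower in 2i/LIF. Of 10 members 9 were measured and 7 reached the CPM minimum, of which 6 were at least 2-fold lower and none higher, beside 14.6% of all genes lower and 9.04% higher. The median was -2.48 over those measured. Their summed level was 63.9 CPM in 2i/LIF and 450 in serum/LIF, beside 406 in the gel and 582 in JupLow. Sox11, an SRY-related factor of early neural and epiblast cells, stood at 11.8 against 96.6 CPM (-3.03, -3.40 to -2.67). Tcf15, a basic helix-loop-helix factor that marks cells primed for differentiation, stood at 8.45 against 56.5 CPM (-2.74, -3.19 to -2.30), with 55.0 and 42.4 CPM in the gel and JupLow. Otx2, the homeobox factor that directs Oct4 to primed enhancers, stood at 12.8 against 36.2 CPM (-1.50, -1.94 to -1.05). For these genes the 3 serum/LIF libraries stood above 2i/LIF. Pou3f1, encoding Oct6, had the largest ratio, with 1.21 against 153 CPM (-6.98, -8.06 to -6.08). Fgf5, the usual marker of primed epiblast, had no value in 2i/LIF and 3.47 CPM in serum/LIF, so no ratio was formed.

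After thinning, a formative UMI was found in 5.43% of the 2i/LIF cells and 31.2% of the serum/LIF cells, or 15.2% and 52.8% before thinning. Within serum/LIF, 30.5% of cells held only naive UMIs, 17.1% only formative UMIs, 14.1% both and 38.3% neither. A formative UMI was present in 31.6% (26.5 to 37.0) of the cells with a naive UMI and in 30.8% (26.4 to 35.6) of those without, and these intervals overlapped nearly in full. The serum/LIF barcodes under 500 UMIs held the formative genes at 418 CPM, near the 450 CPM of the cells. The part of free RNA in these shares was not tested, and nothing is read from their closeness. In 2i/LIF, 82.8% of cells held only naive UMIs and 0.485% only formative ones.

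**Figure D3:**
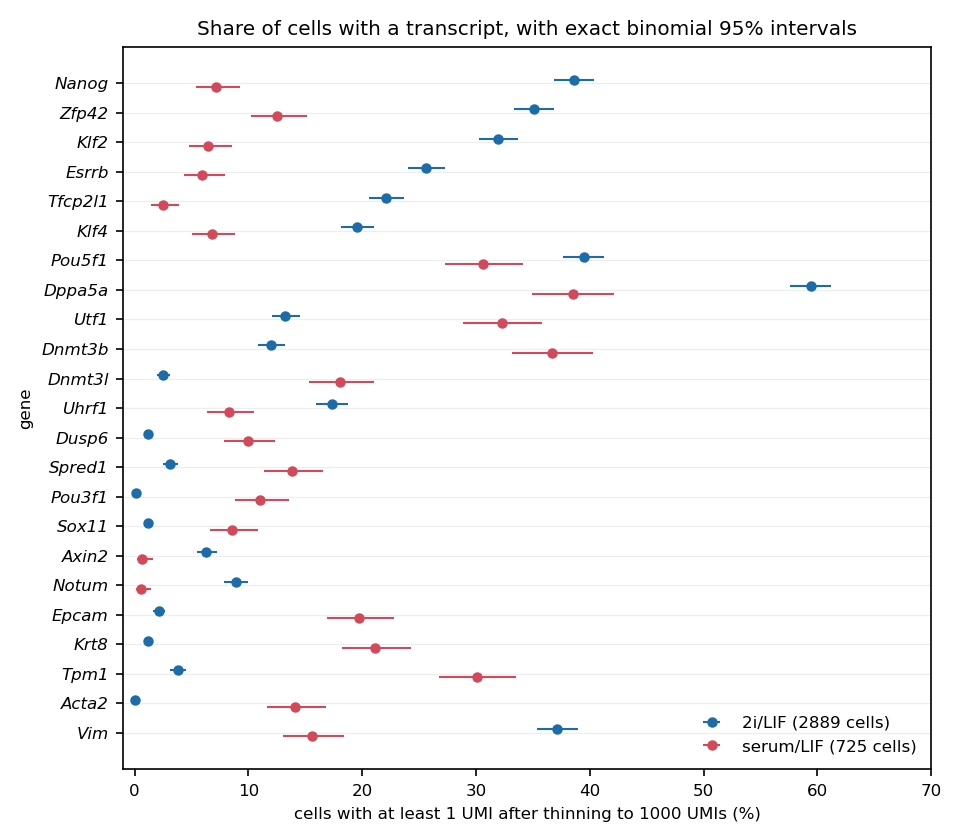
Share of cells with at least 1 UMI of each gene after thinning to 1000 UMIs (horizontal, percent), in 2i/LIF (2889 cells, blue) and serum/LIF (725 cells, red), with exact binomial 95% intervals as bars. Nanog was found in 38.6% of 2i/LIF and 7.17% of serum/LIF cells, and Utf1 in 13.3% and 32.3%.

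DNA methylation genes stood on both sides of equal levels. The de novo methyltransferase genes were lower in 2i/LIF: Dnmt3b stood at 150 against 555 CPM (-1.89, -2.00 to -1.77), Dnmt3a at 42.6 against 107 CPM (-1.32, -1.57 to -1.07), and their catalytically inactive partner Dnmt3l at 26.4 against 228 CPM (-3.11, -3.35 to -2.88). In the gel and JupLow libraries Dnmt3b stood at 711 and 647 CPM and Dnmt3l at 182 and 291 CPM, all above 2i/LIF. The maintenance genes were not lower. Dnmt1 stood at 144 against 112 CPM (0.36, 0.15 to 0.57), and Uhrf1, which brings Dnmt1 to replicated DNA, at 212 against 90.7 CPM (1.23, 1.01 to 1.45). The gel and JupLow libraries held Uhrf1 at 38.1 and 135 CPM. Of the oxidases that start demethylation, Tet1 stood at 196 against 244 CPM (-0.31, -0.46 to -0.17) and Tet2 at 36.8 against 15.4 CPM (1.26, 0.73 to 1.84), while Tet3, which did not reach the CPM minimum, stood at 0.845 against 15.9 CPM (-4.23, -5.65 to -3.02). Over the 9 genes the median was -0.31, which is the value of Tet1, and it turned to 0.13 without the cells of 20% or more mitochondrial UMIs. Of the list, 2 of the 7 genes above the CPM minimum were at least 2-fold higher and 3 lower, beside 9.04% and 14.6% of all genes.

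Most genes that ERK signalling is known to induce were lower in 2i/LIF, the medium that holds a MEK inhibitor. Of the 18 members 13 reached the CPM minimum, with 9 at least 2-fold lower and none higher, beside 14.6% of all genes lower and 9.04% higher. The median over all 18 was -2.34. Dusp6, the phosphatase that removes the activating phosphates of ERK, stood at 10.3 CPM in 2i/LIF and 112 in serum/LIF (-3.45, -3.83 to -3.08), with 102 in the gel and 104 in JupLow. Dusp4, its nuclear relative, stood at 0.241 against 38.7 CPM (-7.32, -10.39 to -5.42), a ratio resting on few 2i/LIF UMIs. The 3 serum/LIF libraries were near one another in Dusp6 and all far above 2i/LIF. Among the Sprouty and Spred genes, which dampen receptor signalling upstream of ERK, Spry4 stood at 4.10 against 33.2 CPM (-3.02, -3.66 to -2.40) and Spred1 at 30.8 against 145 CPM (-2.23, -2.48 to -1.99). Spry2 was closer, at 40.1 against 65.9 CPM (-0.72, -1.01 to -0.42). The ETS factor genes Etv4 and Etv5 differed from each other: Etv4 stood at 5.91 against 24.8 CPM (-2.07, -2.67 to -1.47), and Etv5 at 201 against 184 CPM (0.13, -0.04 to 0.29). Of the immediate early genes, Junb stood at 15.0 against 67.4 CPM (-2.17, -2.53 to -1.81) and Ier2 at 95.5 against 78.8 CPM (0.28, 0.03 to 0.53). Of the 18 members 16 were lower, and the 2 that were not were Etv5 and Ier2. Etv5 turned to -0.08 with thinned cells and also without the cells that held 5 or more endoderm UMIs. Dusp9, an ERK phosphatase gene on the X chromosome that was named by its size of ratio, stood at 6.28 against 168 CPM (-4.75, -5.20 to -4.32).

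Targets of WNT and β-catenin include the pathway's own feedback inhibitors. Of 12 members 7 reached the CPM minimum, with 4 at least 2-fold higher in 2i/LIF and 1 lower, beside 9.04% and 14.6% of all genes. The median over the 12 was 1.81 (-0.13 to 3.60). Axin2, a scaffold of the β-catenin destruction complex, stood at 74.7 CPM in 2i/LIF against 5.45 in serum/LIF (3.78, 2.93 to 4.79), with 0 in the gel and 12.5 in JupLow. Notum, a secreted enzyme that inactivates WNT ligands, stood at 108 against 7.43 CPM (3.86, 3.13 to 4.71). Sp5, a zinc-finger repressor induced by WNT, stood at 68.1 against 8.92 CPM (2.93, 2.26 to 3.70). Apcdd1, a membrane inhibitor of WNT, stood at 17.5 against 2.97 CPM (2.56, 1.40 to 4.03). These 4 feedback genes were lower in the 3 serum/LIF libraries than in 2i/LIF. In the gel library 3 UMIs already are 12.7 CPM, near the 2i/LIF level of Apcdd1, so that library says little on this gene. Lef1, a DNA-binding partner of β-catenin, was the member that stood 2-fold lower, with 19.9 against 48.1 CPM (-1.27, -1.64 to -0.89). Rnf43 (-0.45) and Znrf3 (-0.05) were also below equal levels but within 2-fold. Cdx1, a homeobox gene induced by WNT, had 17.7 CPM in 2i/LIF and 0.496 in serum/LIF (5.16, 2.66 to 10.48) but did not reach the minimum. With 10 CPM added to both levels the list median was 0.27.

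Sp5 is shown with the promoter letters in which a TCF motif was found, because it was the only WNT target of the 8 found in the promoter table with one. The sequence is the 250 bases before the RefSeq start of Sp5 in GRCm38.p6, chr2:70474673-70474922, plus strand, 5′ to 3′. The capitals mark the motif CTTTGAT, searched on both strands, which begins 104 bases before the start site.

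Sp5: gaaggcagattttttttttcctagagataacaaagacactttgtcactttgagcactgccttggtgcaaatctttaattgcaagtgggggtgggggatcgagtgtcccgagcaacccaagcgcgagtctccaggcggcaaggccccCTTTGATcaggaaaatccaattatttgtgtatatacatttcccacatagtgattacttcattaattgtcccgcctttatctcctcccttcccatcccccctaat

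The motif occurs in the same window of 1005 of 27025 genes (3.72%), so a match describes these letters and does not show that a factor binds there.

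Genes of the LIF pathway, which both media supply, had a median of 0.06, with 1 of 8 members 2-fold higher and none lower, beside 9.04% and 14.6% of all genes, and this median turned to -0.05 with the mean of single-cell CPM and to -0.22 with thinned cells, and was 0.52 without the cells that held 5 or more endoderm UMIs. The receptor gene Lifr stood at 42.7 against 52.0 CPM (-0.28, -0.60 to 0.04; 0.51 without those cells), Stat3 at 95.2 against 55.5 CPM (0.78, 0.49 to 1.08) and the feedback inhibitor gene Socs3 at 106 against 80.8 CPM (0.40, 0.16 to 0.65). Stat3 and the receptor gene Il6st passed 2-fold without those cells (1.24 and 1.18) and with TMM factors (1.03 and 1.04). Among BMP targets, the inhibitor of differentiation genes Id1 (26.8 against 115 CPM; -2.10, -2.37 to -1.83) and Id2 (4.22 against 60.0 CPM; -3.83, -4.41 to -3.27) were lower in 2i/LIF. Id3 stood at 69.0 against 64.4 CPM (0.10, -0.18 to 0.39). Of the 6 Id and BMP genes above the CPM minimum, 2 were at least 2-fold lower and 1 higher (Id4, 1.12), beside 14.6% and 9.04% of all genes. In the Nodal pathway the ligand gene Nodal and its feedback inhibitor Lefty1 were within 2-fold (-0.49 and -0.54), while the second inhibitor, Lefty2, was higher in 2i/LIF at 72.3 against 8.92 CPM (3.02, 2.35 to 3.78), with 38.1 in the gel and 27.4 in JupLow. Myc, the growth regulator that MEK and GSK3 activity both act on, stood at 19.1 against 68.4 CPM (-1.84, -2.18 to -1.50), and Mycn at 148 against 314 CPM (-1.09, -1.23 to -0.95; -0.84 with TMM factors). Lin28b, which blocks let-7 microRNA, stood at 20.8 against 50.1 CPM (-1.27, -1.63 to -0.90).

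The core Polycomb genes, which deposit and read the repressive marks on developmental genes, were mostly within 2-fold. Ezh2, Eed and Suz12, the catalytic core that methylates histone H3, had ratios of 0.25, 0.40 and 0.48. Of 9 genes above the minimum 1 was 2-fold lower, a share near the 14.6% of all genes. This was Jarid2, which recruits that complex, at 137 CPM in 2i/LIF and 370 in serum/LIF (-1.44, -1.57 to -1.30), with 305 and 500 CPM in the gel and JupLow.

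Primitive endoderm genes, which mark the extraembryonic lineage that ES cells give rise to in metastable culture, were lower in 2i/LIF, and in serum/LIF their UMIs were gathered in a minority of cells. Of 18 members 15 were measured and 11 reached the CPM minimum, of which 10 were at least 2-fold lower in 2i/LIF and none higher, beside 14.6% of all genes lower and 9.04% higher. The median was -5.50. Their summed level was 464 CPM in 2i/LIF, 2777 in serum/LIF, 829.8 in the gel, 765 in JupLow and 2459 in the serum/LIF barcodes under 500 UMIs. The serum/LIF plastic library thus stood apart from the gel and JupLow libraries.

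The transcription factors measured in both tables were low in 2i/LIF. Gata4 stood at 2.05 CPM against 28.7 (-3.81, -4.68 to -3.01), and Sox7 at 0.121 against 33.2 (-8.10, -13.43 to -5.58). In JupLow these stood at 1.74 and 2.43 CPM. Gata6 had no value in the 2i/LIF table and was left out. Genes of the basement membrane followed: Col4a1, a chain of type IV collagen, stood at 3.02 against 342 CPM (-6.83, -7.46 to -6.25) and the laminin chain gene Lama1 at 33.8 against 304 CPM (-3.17, -3.38 to -2.96). Lamc1, a laminin chain made in many cells, was at 198 against 277 CPM (-0.48, -0.62 to -0.34). Sparc, a matrix protein of parietal endoderm, was at 206 against 928 CPM (-2.17, -2.27 to -2.07), and Srgn, a proteoglycan gene, at 1.33 against 172 CPM (-7.02, -8.04 to -6.16), with 42.3 CPM in the gel and 1.04 in JupLow.

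After thinning, 108 serum/LIF cells (14.9%) held 3 or more UMIs of the endoderm list, against 52 cells (1.80%) in 2i/LIF. The variance of the list's UMIs over its mean was 24.0 in serum/LIF and 1.10 in 2i/LIF, where 1 is the value of pure counting. In the 108 serum/LIF cells, a UMI of the general pluripotency genes was found in 63.0% and of Nanog in 2.78%, against 86.4% and 7.94% in the other serum/LIF cells. Naive UMIs were found in 54.6% (44.8 to 64.2) of the 108 cells and 42.8% (38.8 to 46.8) of the others. These intervals overlapped only in part, and the difference was not tested. Beyond Nanog, which naive genes gave these UMIs was not tested, so the share does not show a naive state in the 108 cells. Formative UMIs were found in 19.4% of them and 33.2% of the others. Krt8 was found in 41.7% against 17.5% and Acta2 in 23.1% against 12.5%. These cells had a median of 2059 UMIs before thinning and the others 2405. In 2i/LIF, Nanog was found in 55.8% of the 52 cells and 38.3% of the others, and naive UMIs in 86.5% and 87.7%. Sparc was found in 76.9% of the 52 cells, and Krt8, Krt18 and Acta2 in 0. No 2i/LIF cell held more than 4 UMIs of the list. Of the serum/LIF cells, 36 held 3 UMIs, 17 held 4 and 38 held 12 or more. The 52 and the 108 cells are therefore not shown to be the same kind of cell.

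Without the cells that held 5 or more endoderm UMIs at full depth (16.8% in serum/LIF and 4.67% in 2i/LIF), the endoderm median was -2.87. Lama1 then stood at -0.01 and Sparc at -0.39, so both calls ended, Lamc1 turned to 0.88, and Col4a1 kept a ratio of -3.40. Gata4 stood at -1.74 and Sox7 at -4.27. Genes outside this list that moved by over 1.5 times but stayed past 2-fold included Krt8 (-4.61), Krt18 (-7.58), Dsp (-3.001), Ccnd2 (-3.17), Rhox5 (-1.002), Col1a1 (-3.27) and Kit (3.47). Among the tested members of the other lists, 8 ratios also fell under 2-fold: Lmna (-0.66), Igf2r (-0.42), Amotl2 (-0.62), Itgav (-0.30), Btg2 (-0.97), Mdm2 (-0.95), Tjp1 (-0.93) and Nr0b1 (0.93). Without the cells of 20% or more mitochondrial UMIs, 6 did so, among them Igf2r (-0.89), Lin28b (-0.93), Tjp1 (-0.98), Id4 (0.87) and Insig1 (0.94). Naive genes did not move together without the cells that held 5 or more endoderm UMIs. Tbx3 rose from 2.40 to 3.56, Klf4 from 1.83 to 2.23 and Klf5 from -0.53 to -0.44. The other members of the naive list fell, Nanog from 2.70 to 2.54, and the list median was 2.16 beside 2.21. Choosing cells by endoderm UMIs removes endoderm RNA from either library by construction. The part of these cells in the ratios of other genes was not tested beyond these values.

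Markers of other lineages were few among the genes that reached the CPM minimum. None of the mesendoderm genes reached the CPM minimum, and T, the Brachyury gene that stands among the WNT targets, was at 2.78 and 0.496 CPM. Of the neural genes only Nes, an intermediate filament gene of progenitors, reached it, with 6.52 against 59.0 CPM (-3.18, -3.67 to -2.70). Of the trophoblast list, Tfap2c stood at 33.9 against 26.3 CPM (0.37, -0.06 to 0.82), and Gata3 at 0.604 against 5.45. Of 11 genes of the 2-cell-like state, a rare state with an early embryo programme, 2 were measured in both tables and neither reached the minimum, so no direction is given for the state. Of these, Zscan4f had 2 UMIs in 2i/LIF and 18 in serum/LIF, and it was found in 0.138% of the thinned serum/LIF cells, which is 1 cell. Its near-identical copies make the gene of origin uncertain. Of 7 fibroblast genes, which would mark feeder cells, 3 were measured in both tables. Only Col1a1 reached the minimum, at 0.241 against 22.8 CPM. Its ratio of -6.56 was -3.27 without the cells that held 5 or more endoderm UMIs. Dcn had 8 UMIs in 2i/LIF and 0 in serum/LIF. Whether feeder cells were present was not tested. The germline gene Rhox5, an X-linked homeobox gene, was lower in 2i/LIF at 40.7 against 138 CPM (-1.76, -1.99 to -1.53), with 38.1 CPM in the gel.

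**Figure D4:**
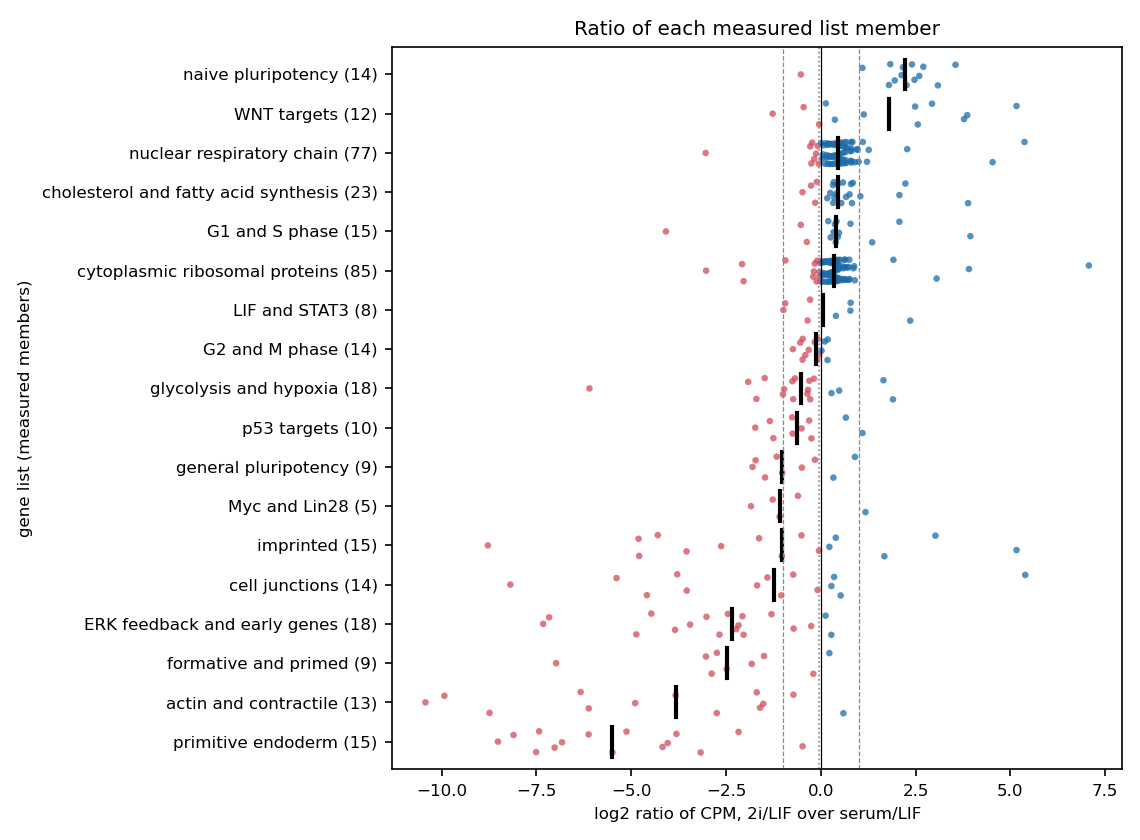
Log2 ratio (horizontal, 2i/LIF over serum/LIF) of each measured member of 18 gene lists, 1 point per gene, blue above 0 and red below; black bars are list medians, dashed lines 2-fold and the dotted line the median of all genes tested. The naive median (2.21) lies farthest to the right and the primitive endoderm median (-5.50) farthest to the left of the lists drawn.

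Cytoskeleton and contractile genes showed the widest differences among the groups of structural genes. Of 15 members 13 were measured and reached the minimum, with 11 at least 2-fold lower in 2i/LIF and none higher, beside 14.6% of all genes lower and 9.04% higher. The median was -3.83 (-4.01 to -3.66). The sum was 3972 CPM in 2i/LIF, 9605 in serum/LIF, 5855 in the gel and 9446 in JupLow. Acta2, the smooth muscle actin gene at chr19:34241090-34255590 in GRCm38, had 3 UMIs in 2i/LIF: 0.362 CPM against 499 (-10.43, -12.71 to -8.88), with 8.47 CPM in the gel, which is 2 UMIs, and 552 in JupLow. Tagln, an actin-binding gene of smooth muscle, stood at 0.241 against 235 CPM (-9.93, -12.98 to -8.07), with 119 and 613. Both were high in the 2 libraries on plastic in serum/LIF, and Acta2 was low in the gel. S100a6, a calcium-binding gene of motile cells, stood at 5.67 against 395 CPM (-6.12, -6.58 to -5.70), with 84.7 and 540. Tpm1, tropomyosin, stood at 41.4 against 589 CPM (-3.83, -4.01 to -3.66). The housekeeping actins were closer: Actb was at 2499.9 against 4127 CPM (-0.72, -0.76 to -0.69) and Actg1 at 785 against 2384 CPM (-1.60, -1.66 to -1.55). Vim, the intermediate filament of mesenchymal cells, was the member that was not lower, with 457 against 303 CPM (0.59, 0.47 to 0.72).

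In single cells, Acta2 was found in 14.1% of thinned serum/LIF cells and 0.0346% of 2i/LIF cells, and its variance over mean was 10.2 in serum/LIF. Serum/LIF barcodes under 500 UMIs held it at 476 CPM, near the 499 CPM of the cells, and the part of free RNA in this share was not tested. Without the cells with 5 or more endoderm UMIs its ratio was -10.60, and without cells of 20% or more mitochondrial UMIs -11.05. Acta2 had 3 UMIs in 2i/LIF, so these ratios move with single UMIs and cannot show the part of those cells, which was not tested.

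Some members of this list are known targets of serum response factor, which binds the CArG box. For this reason the promoters of 3 members with a CArG box, written CC, then 6 bases of A or T, then GG, are shown, each as the 250 bases before the RefSeq start in GRCm38.p6, 5′ to 3′ on the gene's strand, with the box in capitals. Actg1 lies at chr11:120348496-120348745, minus strand, with the box beginning 90 bases before the start site. Cnn2, calponin 2, lies at chr10:79988350-79988599, plus strand, 56 bases before. Myl9, the regulatory light chain of myosin, lies at chr2:156775214-156775463, plus strand, 161 bases before.

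Actg1: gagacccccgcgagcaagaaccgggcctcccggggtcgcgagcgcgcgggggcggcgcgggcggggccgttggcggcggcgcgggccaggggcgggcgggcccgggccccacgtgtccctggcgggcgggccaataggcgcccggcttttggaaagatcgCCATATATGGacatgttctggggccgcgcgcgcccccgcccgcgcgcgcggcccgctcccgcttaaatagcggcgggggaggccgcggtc

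Cnn2: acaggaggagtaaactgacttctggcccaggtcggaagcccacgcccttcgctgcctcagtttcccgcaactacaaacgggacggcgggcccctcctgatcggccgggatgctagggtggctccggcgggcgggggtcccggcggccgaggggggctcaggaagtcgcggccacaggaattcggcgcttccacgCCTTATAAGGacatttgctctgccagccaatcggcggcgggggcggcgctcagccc

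Myl9: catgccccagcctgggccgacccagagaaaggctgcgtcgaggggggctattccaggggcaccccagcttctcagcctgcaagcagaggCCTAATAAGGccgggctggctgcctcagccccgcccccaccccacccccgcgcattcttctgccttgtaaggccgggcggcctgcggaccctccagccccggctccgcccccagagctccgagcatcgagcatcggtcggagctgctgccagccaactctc

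The box was found in the window of 4 of the 13 members in the table (these 3 and Acta1) and of 439 of all 27025 genes (1.62%). It was also found in 2 of 8 WNT targets (Lef1 and Tcf7) and 1 of 11 ERK genes (Dusp5), so it was not particular to this list. The motif was chosen with the ratios known, and a match is no measurement of binding. Cnn2 stood at 6.52 against 194 CPM (-4.90, -5.34 to -4.48) and Myl9 at 0.121 against 51.5 CPM (-8.74, -14.06 to -6.23).

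Epithelial and junction genes were lower in part. Of 14 measured members, 8 were at least 2-fold lower in 2i/LIF and 1 higher, beside 14.6% of all genes lower and 9.04% higher. The higher one was Ctnnb1, for which the serum/LIF plastic table stood apart as given above. Cdh1, E-cadherin, was at 288 against 306 CPM (-0.09, -0.21 to 0.04; 0.17 with TMM factors). Jup, plakoglobin, was at 46.7 against 36.7 CPM (0.35, -0.01 to 0.73). The keratin pair of simple epithelia was far lower: Krt8 at 12.7 against 531 CPM (-5.39, -5.69 to -5.10), with 148 in the gel and 544 in JupLow, and Krt18 at 0.845 against 247 CPM (-8.19, -9.51 to -7.14), with 55.0 and 299. The surface protein gene Epcam was at 22.2 against 258 CPM (-3.54, -3.79 to -3.29), the claudin gene Cldn6 at 3.26 against 78.3 CPM (-4.59, -5.23 to -3.99), and the desmosome gene Dsp at 3.98 against 55.0 CPM (-3.79, -4.39 to -3.22). For these 5 genes the gel and JupLow libraries also stood above 2i/LIF. Of the adhesion genes, Itgb1, the integrin β1 chain, stood at 50.2 against 280 CPM (-2.48, -2.67 to -2.30) and Fn1, fibronectin, at 454 against 270 CPM (0.75, 0.62 to 0.88). Of 5 measured YAP targets 3 reached the minimum, of which Amotl2 (-1.12, and -0.87 with TMM factors) and Ajuba (-1.69) were 2-fold lower, beside 14.6% of all genes.

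**Figure D5:**
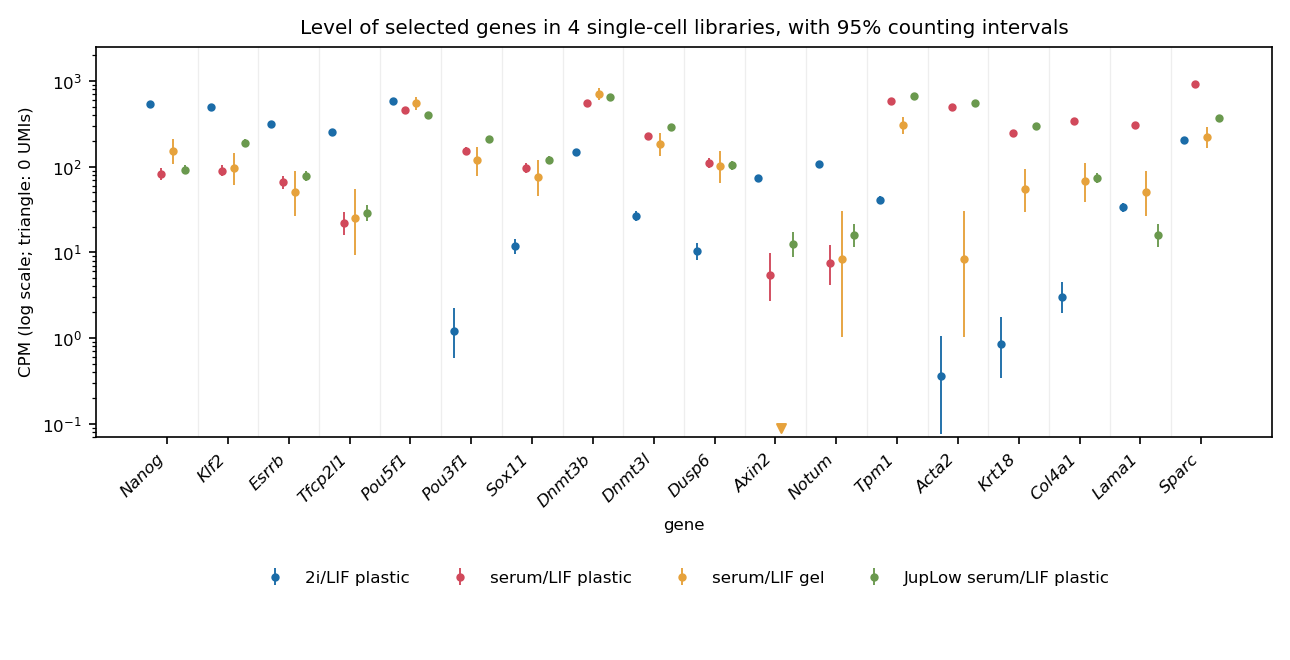
CPM of 18 genes (vertical, log axis) in the 2i/LIF library and the 3 serum/LIF libraries, with exact 95% counting intervals as bars; a triangle marks 0 UMIs. Dusp6 lies between 102 and 112 CPM in the 3 serum/LIF libraries, while Acta2 is at 8.47 CPM in the gel and at 499 and 552 CPM on plastic.

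Of 17 glycolysis and hypoxia genes above the minimum, 4 were at least 2-fold lower in 2i/LIF and 2 higher (median -0.52 over 18), beside 14.6% and 9.04% of all genes. The lactate genes stood opposite each other: Ldha, the subunit of lactate dehydrogenase prevalent in glycolytic cells, was at 176 against 572 CPM (-1.70, -1.81 to -1.59), with 927 in the gel and 537 in JupLow, and Ldhb, prevalent in oxidative tissue, at 406 against 51.5 CPM (2.98, 2.70 to 3.28), with 59.3 and 65.3. Ldhb is not on this list and was named by its size of ratio. The lactate exporter gene Slc16a3 was at 0.483 against 33.2 CPM (-6.10, -8.02 to -4.68). Of the glucose transporters, Slc2a1 stood at 65.5 against 247 CPM (-1.92, -2.09 to -1.74), while Slc2a3 was within 2-fold (-0.28). Of the hexokinases, Hk1 stood at 85.2 against 22.8 CPM (1.90, 1.47 to 2.37), while Hk2 was within 2-fold (0.48). Gapdh stood at 422 against 478 CPM (-0.18, -0.28 to -0.08; 0.07 with TMM factors).

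Nuclear genes of the respiratory chain had a median of 0.46, beside -0.04 over all genes tested, with 5 of the 75 above the minimum at least 2-fold higher and none lower. Cytoplasmic ribosomal protein genes had a median of 0.34, which ranged from 0.06 to 0.59 over the settings tried, with 4 of 84 at least 2-fold higher and 2 lower. Over all genes 9.04% were higher and 14.6% lower. The mitochondrially encoded genes had a median of -0.11, which turned to 0.14 with TMM factors. Of 11 measured, 1 was at least 2-fold higher (mt-Atp6, 2.27) and 3 lower. Among them mt-Nd4l (327 against 15154 CPM), mt-Nd6 (9.90 against 7302 CPM) and mt-Atp8 (16.7 against 3743 CPM) differed from the gel and JupLow libraries in the serum/LIF plastic table alone, mt-Nd6 being at 0 and 7.64 CPM there. For mt-Atp6 no gel or JupLow level is given, so its ratio carries no such check. The genes mt-Nd4 and mt-Co3 were not measured in both tables.

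Sterol and fatty acid genes had a median of 0.44, with 4 of 23 at least 2-fold higher in 2i/LIF and none lower, beside 9.04% and 14.6% of all genes. Both stearoyl-CoA desaturase genes, which make monounsaturated fatty acids, were among the higher: Scd2 at 662 against 141 CPM (2.23, 2.06 to 2.41), with 140 and 162 in the gel and JupLow, and Scd1 at 52.1 against 12.4 CPM (2.07, 1.49 to 2.72). The sterol sensor gene Insig1 stood at 22.5 against 10.9 CPM (1.04, 0.40 to 1.75). Of the serine and amino acid stress genes, Asns, asparagine synthetase, was at 194 against 65.9 CPM (1.56, 1.30 to 1.82) and Shmt2, which moves a carbon unit from serine, at 126 against 58.0 CPM (1.11, 0.84 to 1.40). Lower by 2-fold or more were Sesn2 (57.5 against 178 CPM) and Ddit4 (22.6 against 93.7 CPM), which restrain the growth kinase mTORC1.

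The G1 and S phase list, of replication genes and D- and E-type cyclins, had a median of 0.39. Of its 15 genes, 3 were at least 2-fold higher (Mcm7, 1.35, and the cyclins Ccnd1 and Ccnd3) and 1 lower (the cyclin Ccnd2). The G2 and M phase genes had a median of -0.13, which turned to 0.13 with TMM factors. Of these 14 genes, 0 were 2-fold higher and 0 lower, beside 9.04% and 14.6% of all genes. The D-type cyclins, which link growth signals to the cycle, differed among themselves. Ccnd1 stood at 206 against 49.1 CPM (2.07, 1.78 to 2.38), though JupLow held 191 CPM, and Ccnd2 at 2.66 against 45.1 CPM (-4.09, -4.83 to -3.40), with 16.9 in the gel and 18.8 in JupLow. The third D-type cyclin, Ccnd3, stood at 137 against 8.92 CPM, with 50.8 in the gel and 76.4 in JupLow. All 10 p53 targets reached the minimum, with a median of -0.63. Of these, 3 were at least 2-fold lower and 1 higher, beside 14.6% and 9.04% of all genes. Of the p53 targets, Ccng1 (101 against 336 CPM; -1.73, -1.88 to -1.58), the p53 inhibitor gene Mdm2 (79.9 against 190 CPM; -1.25, -1.44 to -1.07) and Btg2 (18.3 against 46.6 CPM; -1.34, -1.72 to -0.96) were 2-fold lower. Without the cells that held 5 or more endoderm UMIs, Mdm2 (-0.95) and Btg2 (-0.97) were within 2-fold. The higher target was Sesn1 (1.10), which turned to -0.16 with thinned cells. The cell-cycle inhibitor gene Cdkn1a stood at 192 against 121 CPM (0.66, 0.47 to 0.86).

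Imprinted genes, expressed from one parental copy according to DNA methylation, stood on both sides: of 15 measured, 8 were at least 2-fold lower in 2i/LIF and 3 higher (median -1.03), beside 14.6% and 9.04% of all genes. H19, a maternally expressed RNA, stood at 0.483 against 213 CPM (-8.78, -10.66 to -7.42), with 72.0 in the gel and 166 in JupLow, and its variance over mean was 7.64 in serum/LIF. Phlda2, a growth regulator of the placenta, stood at 3.38 against 94.7 CPM (-4.81, -5.44 to -4.23) and Grb10, an adaptor that restrains insulin signalling, at 4.47 against 52.0 CPM (-3.54, -4.12 to -2.99). These 3 genes are expressed from the maternal copy in most embryonic tissues, and each was above 2i/LIF in the 3 serum/LIF libraries. The paternally expressed genes Peg3 (30.3 against 93.7 CPM; -1.63, -1.91 to -1.35) and Peg10 (23.5 against 146 CPM; -2.63, -2.90 to -2.36) were lower as well. Plagl1, a zinc-finger gene, was higher at 44.3 against 5.45 CPM (3.02, 2.17 to 4.04), with 0 and 7.64 in the other libraries. Snrpn, at 106 against 2.97 CPM, stood at 707 and 206 CPM in the gel and JupLow, so its ratio rests on the serum/LIF plastic table. Mest was also at least 2-fold higher (1.68, and 0.99 with thinned cells). No count by parental copy was made, so the genes named do not stand for either copy as a class. Meg3 and Rian, RNAs of one imprinted cluster, were close (362 against 310 CPM and 198 against 205 CPM). Without the cells that held 5 or more endoderm UMIs the list median was -0.50.

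Outside the lists, the genes named were the 12 with the largest ratios each way among 1373 that overlap no other gene and had a mean of at least 50 CPM. Trh, which encodes thyrotropin-releasing hormone and lies at chr6:92242061-92244650 in GRCm38, had the largest ratio towards 2i/LIF, at 256 against 11.9 CPM (4.43, 3.85 to 5.07), and it was found in 21.1% of thinned 2i/LIF cells and 1.38% of serum/LIF cells. The gel library held 119 CPM and JupLow 24.0, so Trh was not equally low in the 3 serum/LIF libraries. Fam25c stood at 97.8 against 4.96 CPM (4.30, 3.42 to 5.37), and Slc4a5, a bicarbonate transporter, at 111 against 10.4 CPM (3.42, 2.79 to 4.11). Kit, the receptor of stem cell factor, stood at 146 against 21.3 CPM (2.78, 2.34 to 3.25), and Mt1, a metal-binding metallothionein, at 1454 against 246 CPM (2.56, 2.43 to 2.69). Alpl, the alkaline phosphatase used to stain ES cells, stood at 107 against 18.3 CPM (2.54, 2.07 to 3.06), with 8.47 and 20.8 CPM in the gel and JupLow. The RNase P subunit gene Rpp25 (2.73) and the noncoding RNA Platr3 (2.71) completed this set with Ldhb, Nanog and 2 genes that have near-identical copies, the ribosomal retrogene Rpl10l (292 against 35.2 CPM) and Gstp2 (146 against 25.3 CPM), whose counts are uncertain. The last gene inside the rule had a ratio of 2.53 and the first outside one of 2.47.

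At the other end, beside Acta2, Krt18, Srgn, S100a6, Cnn2 and Dusp9, stood 6 more genes. Itga3, a laminin-binding integrin chain, was at 1.69 against 111 CPM (-6.04, -6.94 to -5.27), with 42.3 and 153 in the gel and JupLow. Lrp2, the endocytic receptor megalin, was at 3.50 against 131 CPM (-5.22, -5.83 to -4.67), with 119 and 131, and -4.52 without the cells that held 5 or more endoderm UMIs. Car2, a carbonic anhydrase, was at 11.3 against 287 CPM (-4.66, -4.99 to -4.35), with 339 and 252. F3, tissue factor, the start of blood coagulation, was at 4.10 against 113 CPM (-4.78, -5.35 to -4.26), with 4.23 in the gel and 75.7 in JupLow. Without the cells that held 5 or more endoderm UMIs F3 stood at -3.13 and Srgn at -4.75. The remaining pair, Myo7a and Adamts6, stood at 176 and 169 CPM in the serum/LIF plastic table, but JupLow held 1.04 and 2.08 CPM and the gel 0 and 4.23 CPM. For these 2 genes and Srgn, which was at 42.3 CPM in the gel, the serum/LIF plastic library stood far above the JupLow library on the same medium and plastic. The ratios at the edge of the rule were -4.66 inside and -4.40 outside.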

How the data were processed

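In each table the authors deposited UMI counts, whole numbers with no normalization, with barcodes in rows and genes in columns. The submitters' processing notes name FastQC, STAR, featureCounts, DESeq2 and Scanpy and the builds mm10 and GRCm38, with no role or version, and whether counting used strand is not given in the sources used here. Columns without a gene name, which held 0.0908% of the 2i/LIF and 0.00509% of the serum/LIF UMIs, were left out. Barcodes with 1000 or more UMIs and at most 0.9 genes per UMI were kept, and no doublet caller was run. The tables shared 0 barcodes.

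Counts were summed per library and scaled to CPM. The summed level of a list took every member with a value in that library, also members left out of the ratios. With 1 library per medium there was no test: CPM ratios carry exact conditional 95% intervals and shares exact binomial (Clopper-Pearson) ones, which cover counting error only. UMIs remove copies made by PCR but not errors between cultures. Past 2-fold was counted over genes with at least 1 UMI in both tables and a mean of 10 CPM. Shares used each cell thinned to 1000 UMIs. The ratio and interval code was tested on simulated data. Overlaps came from GENCODE M21 (GRCm38) and promoters from RefSeq GRCm38.p6.

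The 32 gene lists and the members were chosen with earlier results of these data known. Some list members are counted but not reported here by name. Beyond the lists, named genes were the 12 largest ratios each way without an overlap (mean of at least 50 CPM, no Gm, Rik or ps symbols), and the 3 largest each way whatever the overlap. Python 3.11.15, NumPy 2.4.6, SciPy 1.17.1, R 4.3.3 and edgeR 4.0.16 (TMM factors only) were used.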

Additional observations from a re-analysis of the deposited data

How the results depend on the processing

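No paired analysis was possible because each medium had 1 library. No replicate could be left out either, so every range here comes from processing choices. The count of genes at least 2-fold higher in 2i/LIF was 1213 with TMM factors, 303 without overlapping genes, 527 with 10 CPM added, 239 at a mean of 50 CPM, 1753 with no CPM minimum, 1571 at 1.5-fold and 310 at 4-fold. The count of lower genes was 434 without overlapping genes, 343 at a mean of 50 CPM, 5161 with no minimum, 2105 at 1.5-fold and 668 at 4-fold. The formative median was -2.95 with thinned cells, and with 10 CPM added the naive, formative and ERK medians were 1.71, -1.41 and -1.16. Of 480 list medians over 32 lists, 422 stayed within the range of member interval ends given for the main value. Of those past 2-fold 0 changed sign, while 212 of the 240 values for medians past 2-fold stayed past it. With TMM factors the general pluripotency and junction medians were -0.77 and -0.97. Of 4758 gene ratios, 4200 stayed within the interval of the main ratio. With thinned cells 2 genes past 2-fold changed sign: Id4 to -0.040 and Sesn1 to -0.16. Naive shares in 2i/LIF were 97.7% at 2000 UMIs, 93.9% unthinned and 90.2% without cells of 20% or more mitochondrial UMIs, and in serum/LIF 61.2%, 66.8% and 50.5%. Formative shares were 12.2% at 2000 UMIs and 15.2% unthinned in 2i/LIF, and 50.5% and 52.8% in serum/LIF. Leaving out cells by mitochondrial or endoderm UMIs, or genes that differ from both the gel and JupLow libraries, was chosen after seeing the data. The cause of these shifts was not tested. Depth limits genes of few UMIs: 3 UMIs are 0.362 CPM in 2i/LIF, 1.49 CPM in serum/LIF and 12.7 CPM in the gel library.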
